A study of Mus musculus with 4 samples.

Results

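Genes that make, read and repair the DNA breaks of antibody class switching were followed in mouse spleen cells cultured with or without imatinib. The set held 45 genes, chosen by name from base excision repair, mismatch repair, end joining, homologous recombination, break signalling and the transcription machinery that works at switch regions. All 45 had at least 1 probe on the array, 56 probes in all among 39429, and all 56 were well above background on all 4 arrays and were tested. Splenocytes came from female C57BL/6 mice aged 8 weeks and were grown for 72 h with IL-4 and LPS. One group also received 10 µM imatinib, a drug that blocks the tyrosine kinases ABL, KIT and PDGFR, and the control group did not. Both groups therefore carried the same stimulus, which activates B cells and starts class switching. Each group was 2 RNA samples, each hybridised to its own Agilent 1-colour array. No label states that these were separate mice or cultures, so the p-values measure only the spread between these samples, which may be technical. The cells were unsorted, and fewer cells of a type and less RNA per cell cannot be told apart in such samples.

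In class switching a B cell exchanges the constant region of its antibody heavy chain by deleting the DNA between a pair of switch regions. Cytidines deaminated there leave uracils, which base excision repair and mismatch repair turn into nicks and then into double-strand breaks. The breaks are sensed by kinases and chromatin proteins that include ATM and 53BP1, and the distant ends are joined by non-homologous end joining, while homologous recombination mends breaks in dividing cells. Activated B cells divide quickly, and many genes of these pathways are known to be expressed more strongly in cells that replicate their DNA. The study asked which pathways imatinib acts on when it lowers class switching, and these genes carry out the steps that follow deamination.

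The largest rise of the set came from a probe that cannot be read as its gene. The only probe for Ung, the glycosylase that removes uracil from DNA, ends in a run of alternating T and G that is 34 bases long. Probes of Eya1, a gene of organ development, and of Hemgn, a gene of blood cell precursors, also hold such a run, and a shorter run stands in the probe of Exosc9, a subunit of the RNA exosome. The 30 bases from position 16 to 45 of each probe are shown, counted from 1 at the 5′ end, because the run is what these probes share, and the run is in capitals.
Ung: gagatttcaaaGTGTGTGTGTGTGTGTGTG
Eya1: tgtgtacgtgaGTGTGTGTGTGTGTGTGTG
Hemgn: tagacaataGTGTGTGTGTGTGTGTGTGTG
Exosc9: atctcTGTGTGTGTGTGTGTGTatacatac

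The Ung probe read 7.41 and 7.36 with imatinib and 5.48 and 5.54 without; all levels here are log2 signals after subtraction of the array's own 75th percentile. The difference, imatinib minus control, was 1.87 (SE 0.062, adjusted p = 0.00075, n = 2 arrays each). The Eya1 and Hemgn probes differed by 1.92 and 1.84. All 25 tested probes with such a run of 30 or more bases were higher with imatinib, by 1.22 to 2.06. Probes with a run of the complementary letters, A and C, went the other way, with 34 of 50 lower, 2 higher and a median of -0.63. Without Ung, the 24 TG probes with a run of 30 or more bases ran from 1.22 to 2.06, and the Ung value lies within that range. No level of Ung is read from its probe. Among the other member probes no such run was longer than 8 bases.

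**Figure D1:**
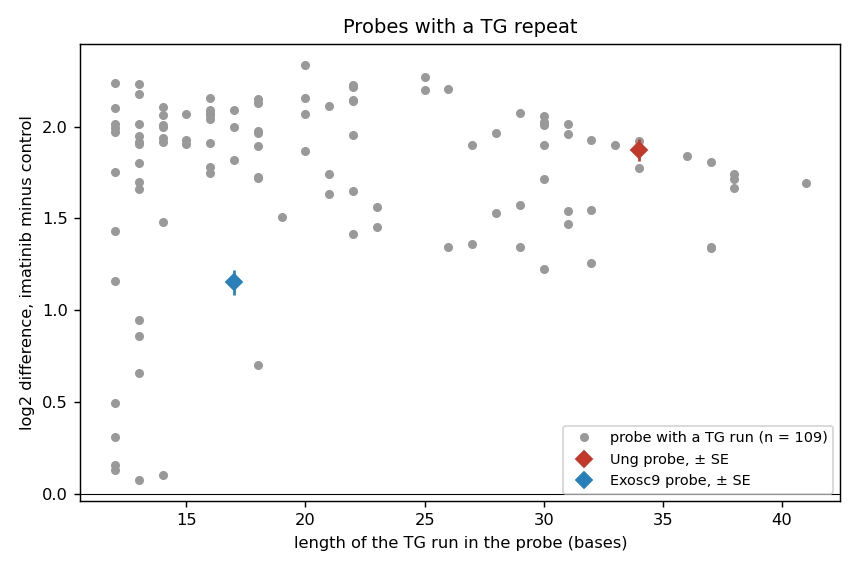
Log2 difference (imatinib minus control) against the length in bases of the TG run for the 109 tested probes that hold a run of 12 or more bases; the diamonds are the Ung and Exosc9 probes with their SE. The Ung probe at 34 bases and 1.87 lies among the other long runs.

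With imatinib the members shifted down by modest amounts. In the limma fit over all 25375 tested probes, at an adjusted p under 0.05, 23 of the 45 genes fell and 2 rose (the probes of Ung and Apex2), each gene standing by its brightest probe. Among all 20544 genes tested the same way, 21.7% fell and 19.5% rose. Both imatinib arrays lay below both control arrays for 32 members and above them for 8, where this held for 37.2% and 35.5% of all genes. The median difference of the members was -0.25, against 0.011 over all genes tested. Counted by probe, 27 of the 56 fell and 2 rose, against 22.5% and 19.3% of all probes (41.9% in either direction), and the arrays were apart for 39 downward and 9 upward, against 38.4% and 35.2%. All genes tested changed in 41.1% of cases in either direction. Relative to the control mean, the members' median was -0.25 on each imatinib array, and -0.0063 and 0.0063 on the control arrays.

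Most of these falls were small, and 10 of the 23 had an adjusted p of at least 0.03. Only 4 of the 23 were at least 0.5 on the log2 scale (Apex1, Exo1, Parp1 and Exosc3), and the adjusted p of the 23 ran from 0.0026 to 0.045. Without imatinib replicate 1, 4 of the 23 still passed, without imatinib replicate 2 also 4, without control replicate 1 11, and without control replicate 2 9. Without a filter on dim probes, which raises the number of tests to 39337, 6 members fell, beside 5.42% of all probes. Scaling sets the size. On the median of all probes the members' median was -0.44 and 31 fell, beside 36.5% of all probes. On spike-in controls it was -0.54 and 34 fell, beside 46.2% of all probes. Under these scalings the median over all probes was itself -0.19 and -0.28. Both scalings move every probe of an array by 1 constant. The members' median relative to all probes, -0.26, therefore could not differ from that of the main fit. Under quantile normalization the members' median was -0.18, with 19 lower and 4 higher, beside 24.4% and 18.3% of all probes. The median over all probes was then -0.06, and relative to that the members' median was -0.12.

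**Figure D2:**
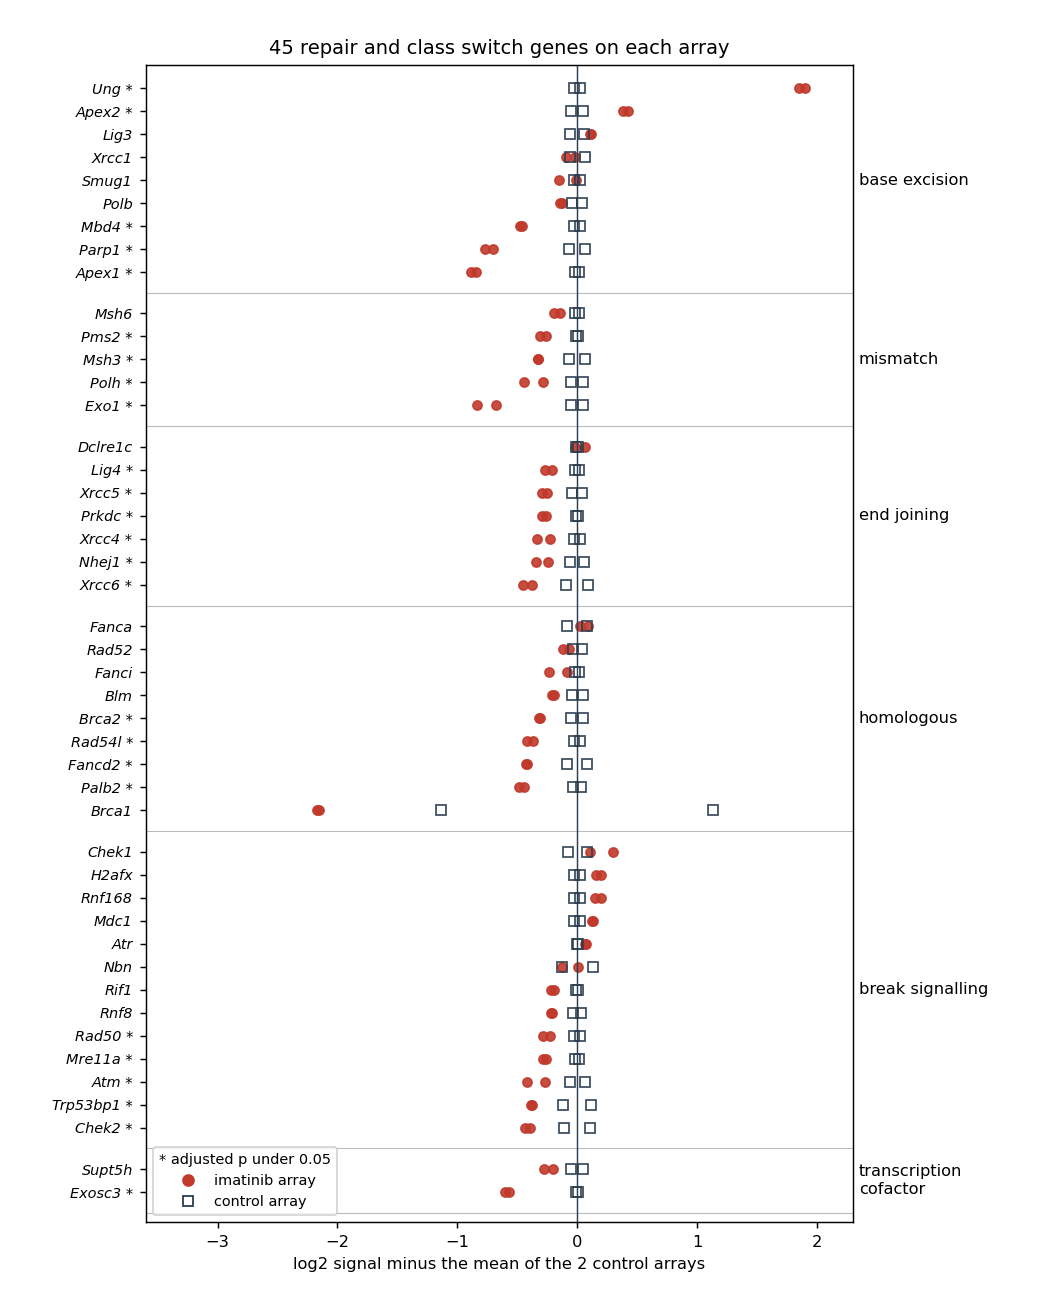
Log2 signal of each of the 45 members on the 2 imatinib arrays (filled circles) and 2 control arrays (open squares), minus the mean of the control arrays, in pathway order; an asterisk marks an adjusted p under 0.05. Both imatinib arrays are left of both control arrays for 32 of the 45 genes, beside 37.2% of all genes tested. Brca1 is the one gene whose control arrays are far apart.

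**Figure D3:**
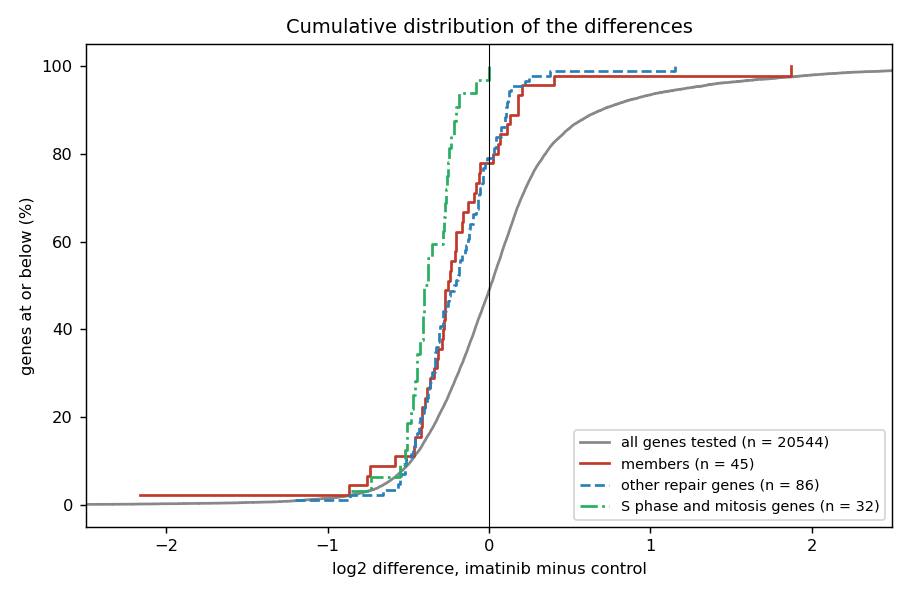
Share of genes (percent) at or below each log2 difference for all 20544 genes tested, the 45 members, 86 other repair genes and 32 genes of S phase and mitosis; the horizontal axis stops at 2.5 on each side. The member curve lies left of that of all genes over most of its length, close to that of the other repair genes.

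In base excision repair 3 of 9 genes fell (33.3%, beside 21.7% of all genes). The probes of 2, Ung and Apex2, rose (22.2%, beside 19.5%), and that of Ung is not read as its gene. The median, with the Ung probe counted, was -0.081. Apex1, the endonuclease that cuts the strand at the site left by a removed uracil, read 3.12 and 3.16 with imatinib and 4.02 and 3.99 without. The groups did not overlap, and the difference of -0.86 (SE 0.060, adjusted p = 0.0026) left it at 54.9% of its control signal. Parp1, the poly(ADP-ribose) polymerase that binds nicked DNA, read 1.40 and 1.33 with imatinib and 2.03 and 2.16 without, a difference of -0.74 (SE 0.077, adjusted p = 0.0059). It stood at 60.1% of control. These were among the largest falls of the set, and the whole 60-base probes that carry them hold no repeat of 12 or more bases.
Apex1 probe: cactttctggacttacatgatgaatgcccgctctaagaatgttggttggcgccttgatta
Parp1 probe: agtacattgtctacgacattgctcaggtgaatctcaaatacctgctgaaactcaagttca

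Mbd4, a glycosylase that removes thymine or uracil opposite guanine, read -1.38 and -1.36 with imatinib and -0.88 and -0.92 without, a difference of -0.47 (SE 0.059, adjusted p = 0.0086). That call ended without imatinib replicate 1 (adjusted p = 0.065) and without imatinib replicate 2 (adjusted p = 0.061), in a range over all alternatives of 0.00014 to 0.065. Apex2, a weaker relative of Apex1 that is also active in B cells, went the opposite way. It read -0.79 and -0.74 with imatinib and -1.12 and -1.22 without, a difference of 0.40 (SE 0.069, adjusted p = 0.016). The pair of endonucleases moved in opposite directions on these arrays, although the call for Apex2 was lost in 7 of 13 alternatives. It was 0.22 under median centring (adjusted p = 0.083) and 0.12 under spike-in scaling (adjusted p = 0.27), and it also failed without imatinib replicate 1 (0.082), imatinib replicate 2 (0.098) and control replicate 2 (0.052), in a range of 0.00046 to 0.27.

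The remaining base excision genes did not pass on their brightest probes. Polb, the polymerase that fills the gap, differed by -0.13, Xrcc1, the scaffold of single-strand break repair, by -0.056, and Smug1, another uracil glycosylase, by -0.081. For Xrcc1 and Smug1 the arrays of the groups overlapped. Under spike-in scaling Polb (-0.41, adjusted p = 0.015), Xrcc1 (-0.34, adjusted p = 0.019) and Smug1 (-0.36, adjusted p = 0.018) passed as falls, and Polb also did under median centring (-0.32, adjusted p = 0.045), in ranges that reached 0.45, 0.95 and 0.97. Lig3, the ligase that partners Xrcc1, gave different answers on its 2 probes. The brighter probe read 0.01 and 0.01 with imatinib and -0.04 and -0.16 without, a difference of 0.11 (adjusted p = 0.28). The dimmer probe read -1.77 and -1.99 with imatinib and -1.55 and -1.48 without, a difference of -0.36 (adjusted p = 0.047). Both carry the same transcript accession, and their middle 30 bases (position 16 to 45) are shown so that the probes can be told apart.
Lig3 brighter probe: ggaatgggttccaactttcatttggtttaa
Lig3 dimmer probe: gggaatgaagaggaaagctactgatgagac

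Mismatch repair had falls in all but 1 of its genes. Of its 5 genes 4 fell (80%, beside 21.7% of all genes), none rose (beside 19.5%), and the median was -0.32. Both imatinib arrays were below both control arrays for all 5, where this held for 37.2% of all genes. Exo1, the exonuclease that opens a gap from a nick to a mismatch, read 1.89 and 1.74 with imatinib and 2.52 and 2.62 without. The difference was -0.76 (SE 0.086, adjusted p = 0.0069), to 59.2% of control. Polh, the polymerase that copies past lesions and makes mutations at A and T bases in antibody genes, read -1.78 and -1.94 with imatinib and -1.45 and -1.55 without, a difference of -0.37 (SE 0.088, adjusted p = 0.037).

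The recognition genes Msh3 and Msh6 and the endonuclease gene Pms2 differed by -0.32, -0.17 and -0.28 on their brightest probes. Msh3, which detects larger loops, had 3 probes. The brightest read 1.36 and 1.36 with imatinib and 1.61 and 1.75 without, a difference of -0.32 (SE 0.074, adjusted p = 0.033). The dimmest also passed, at -0.32 (adjusted p = 0.039), and the middle one differed by -0.053, with overlapping arrays (adjusted p = 0.59). Msh6, which detects single mismatches, read 3.50 and 3.44 with imatinib and 3.62 and 3.65 without. Its difference of -0.17 did not pass (adjusted p = 0.098), but did under median centring (-0.35, adjusted p = 0.030), spike-in scaling (-0.45, adjusted p = 0.011) and a trended, robust variance (adjusted p = 0.019), in a range of 0.011 to 0.46. Pms2, the endonuclease of the pathway, fell on both of its probes. The brighter read 0.23 and 0.28 with imatinib and 0.55 and 0.53 without, a difference of -0.28 (SE 0.059, adjusted p = 0.026), and the dimmer differed by -0.53 (adjusted p = 0.011). Of the 4 calls, Exo1 alone held without imatinib replicate 1, without imatinib replicate 2 and without control replicate 2, and 2 held without control replicate 1; the adjusted p of the 4 reached 0.16.

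End joining, the route that closes switch breaks, fell by a narrow range of amounts. Of its 7 genes 6 fell (85.7%, beside 21.7% of all genes), none rose (beside 19.5%), and the median was -0.27. The subunits of the Ku ring that loads on broken ends both fell. Xrcc6 (Ku70) read 3.26 and 3.18 with imatinib and 3.72 and 3.54 without, a difference of -0.41 (SE 0.089, adjusted p = 0.028). Xrcc5 (Ku80) read 0.48 and 0.44 with imatinib and 0.69 and 0.77 without, a difference of -0.27 (SE 0.066, adjusted p = 0.037). Both imatinib arrays lay below both control arrays for each subunit, where this held for 37.2% of all genes.

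Prkdc, the catalytic subunit of the kinase that Ku recruits, was spotted 10 times on each array and read -0.32 and -0.28 with imatinib and -0.04 and -0.02 without. It differed by -0.27 (SE 0.058, adjusted p = 0.027). The ligation complex fell in all 3 of its parts. Lig4, the ligase, read -0.96 and -0.91 with imatinib and -0.72 and -0.68 without (difference -0.24, adjusted p = 0.044). Xrcc4, its scaffold, read -1.14 and -1.24 with imatinib and -0.94 and -0.88 without (difference -0.28, adjusted p = 0.041). Nhej1, which encodes XLF and stabilises the bridge between the ends, read -0.03 and 0.07 with imatinib and 0.37 and 0.26 without (difference -0.29, adjusted p = 0.045).

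The exception was Dclre1c, which encodes Artemis, the nuclease that opens hairpins and trims ends. Its 4 probes, for 2 transcript accessions, differed by -0.041 to 0.059 and none passed; the brightest read -0.23 and -0.32 with imatinib and -0.31 and -0.30 without. None of the 6 end joining calls held without imatinib replicate 1, imatinib replicate 2 or control replicate 1, and 1, that of Xrcc6, held without control replicate 2. The adjusted p of the 6 reached 0.23, 0.21, 0.12 and 0.12 in these fits. The median of all 7 end joining genes stayed between -0.25 and -0.29 in all 4.

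Homologous recombination and Fanconi anaemia genes were lower in 8 of 9 cases by array order, where this held for 37.2% of all genes. Of the 9, 4 passed as falls (44.4%, beside 21.7% of all genes). Palb2, which bridges Brca1 and Brca2, read -2.84 and -2.80 with imatinib and -2.39 and -2.33 without, a difference of -0.46 (SE 0.062, adjusted p = 0.0097). Its second, dimmer probe differed by -0.36 without passing (adjusted p = 0.076). Fancd2, a clamp subunit loaded at crosslinks and stalled forks, read -2.04 and -2.03 with imatinib and -1.70 and -1.53 without (difference -0.42, SE 0.081, adjusted p = 0.022). Rad54l, a motor protein of strand exchange, read 0.80 and 0.74 with imatinib and 1.19 and 1.14 without (difference -0.40, SE 0.061, adjusted p = 0.013). Brca2, the loader of the recombinase, read 0.91 and 0.89 with imatinib and 1.26 and 1.17 without (difference -0.31, SE 0.066, adjusted p = 0.027). For these 4 genes both imatinib arrays lay below both control arrays, where this held for 37.2% of all genes.

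The rest of the pathway did not pass. Fanci, the partner of Fancd2 in the clamp, differed by -0.16 (adjusted p = 0.18), Blm, a helicase that dissolves joint molecules, by -0.20 (adjusted p = 0.076), Rad52, an annealing protein, by -0.094, and Fanca, of the core complex, by 0.059. Blm passed as a fall in 4 of the 13 alternatives (adjusted p 0.0082 to 0.28), Fanci in 2 (0.018 to 0.60) and Rad52 in 1 (0.017 to 0.67). Brca1 could not be called because its control arrays disagreed. Its probe was also the dimmest of the member probes on the imatinib arrays, though well above background on all 4 arrays. It read -5.43 and -5.44 with imatinib, -4.41 on control 1 and -2.14 on control 2, so that its difference of -2.16 had an SE of 0.80 (adjusted p = 0.10). Its difference was -1.02 without control replicate 2 and -3.30 without control replicate 1. With a control array left out, its own spread came from the imatinib arrays alone, so whether it passed there is not read. It passed as a fall with the normexp background correction (-0.82, adjusted p = 0.012), median centring (-2.35, adjusted p = 0.035) and spike-in scaling (-2.44, adjusted p = 0.025). It did not pass with quantile normalization or a replicate block. Of the 4 falls, none held without imatinib replicate 1 or imatinib replicate 2, and 3 held without each control array.

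Of 13 break signalling genes 5 fell (38.5%, beside 21.7% of all genes) and none rose (beside 19.5%). Both imatinib arrays were below both control arrays for 7 and above them for 5, where this held for 37.2% and 35.5% of all genes. The falls were in the sensor kinase, 2 subunits of the complex that activates it, the adaptor 53BP1 and a downstream kinase. Atm, the kinase, fell on both of its probes; the brighter read -0.29 and -0.44 with imatinib and -0.09 and 0.04 without (difference -0.34, SE 0.088, adjusted p = 0.045), and the other differed by -0.29 (adjusted p = 0.044). Chek2, a kinase that Atm activates, read -2.88 and -2.93 with imatinib and -2.60 and -2.38 without (difference -0.41, SE 0.097, adjusted p = 0.034). Trp53bp1 (53BP1), which protects switch ends from resection, read 0.01 and -0.01 with imatinib and 0.27 and 0.50 without on its brighter probe (difference -0.38, SE 0.099, adjusted p = 0.045). Its dimmer probe differed by 0.056 with overlapping arrays (adjusted p = 0.63).

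The complex of Mre11a, Rad50 and Nbn tethers ends and activates Atm, and the first 2 of these genes passed. Mre11a, the nuclease, read 2.01 and 1.98 with imatinib and 2.29 and 2.25 without (difference -0.27, SE 0.058, adjusted p = 0.027). Rad50, the tether, read 1.07 and 1.01 with imatinib and 1.32 and 1.27 without on its brighter probe (difference -0.25, SE 0.062, adjusted p = 0.038), and its second probe differed by -0.35 (adjusted p = 0.057). Nbn, the adaptor, read -1.85 and -1.99 with imatinib and -1.99 and -1.73 without, with overlapping arrays and a difference of -0.059 (SE 0.12, adjusted p = 0.72). Whether Nbn differed from its partners was not tested.

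The genes of the chromatin steps between Atm and 53BP1, and Rif1, differed in sign and did not pass. The ubiquitin ligase Rnf8 differed by -0.21 (adjusted p = 0.056) and Rif1, which acts with 53BP1, by -0.21 (adjusted p = 0.053); each passed as a fall in 6 of the 13 alternatives, with adjusted p from 0.0050 to 0.23 for Rnf8 and from 0.0064 to 0.25 for Rif1. In contrast, the histone gene H2afx differed by 0.18 (adjusted p = 0.085), the ligase Rnf168 by 0.18 (adjusted p = 0.088) and the mediator Mdc1 by 0.13. H2afx, Rnf168 and Mdc1 were above control on both imatinib arrays, but turned to -0.0081, -0.0097 and -0.057 under median centring. H2afx and Rnf168 passed as rises under quantile normalization, at 0.29 and 0.22, and with a trended, robust variance. The replication stress kinases Atr and Chek1 differed by 0.069 and 0.20 without passing, and under spike-in scaling they turned to -0.21 and -0.079. None of the 5 falls of this group held without imatinib replicate 1, imatinib replicate 2 or control replicate 2, and 2 held without control replicate 1; their adjusted p reached 0.15, 0.21, 0.14 and 0.098.

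The last 2 members serve the transcription that opens switch regions. Exosc3, a subunit of the RNA exosome that exposes template strands, read 0.62 and 0.60 with imatinib and 1.20 and 1.19 without. It fell by 0.58 (SE 0.057, adjusted p = 0.0053), to 66.7% of control. Supt5h, a factor of paused RNA polymerase II, read 4.09 and 4.17 with imatinib and 4.42 and 4.32 without, and its difference of -0.24 did not pass (adjusted p = 0.064), though it did in 4 of the 13 alternatives (range 0.0040 to 0.27). Of all 23 falls, those of Apex1, Parp1, Exo1 and Exosc3 held under all 13 alternatives run for single genes, the leave-outs of each array included.

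Of the 45 members, 8 had several probes, and 3 of those (Lig3, Trp53bp1 and Dclre1c) had probes of both signs. Atm and Pms2 passed as falls on all their probes. The other 37 rest on 1 probe each, so their values have no check within the array.

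**Figure D4:**
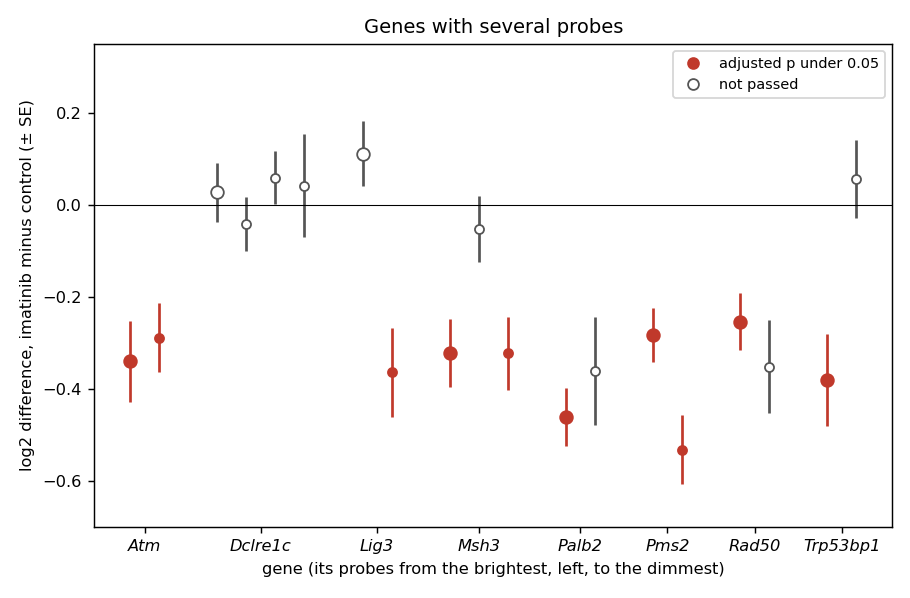
Log2 difference (imatinib minus control, with SE) of every probe of the 8 members with several probes, from the brightest probe at the left to the dimmest at the right of each gene; filled points passed. The probes of Atm and Pms2 all lie below 0 and passed, whereas those of Lig3 and Trp53bp1 lie on both sides.

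Other genes of the same pathways were tested on the same arrays. Of 86, 38 fell (44.2%, beside 21.7% of all genes) and 1 rose (1.16%, beside 19.5%) on their brightest probes, with a median of -0.21. Some genes that did not pass had a dimmer probe that did. These were rises for Rad51d (0.67) and Rad51b (0.45), and falls for genes such as Fancl (-0.58), Mpg (-0.35), Fancc (-0.35) and Mutyh (-0.33). Of the 38 falls, 5 held without imatinib replicate 1, 4 without imatinib replicate 2, 23 without control replicate 1 and 18 without control replicate 2. The gene that rose on its brightest probe was Exosc9 (1.15), and that probe holds the 17-base run shown above. In base excision repair 7 of 15 fell, among them the glycosylases Neil1 (-1.20) and Tdg (-0.86) and the polymerase Parp2 (-0.66). In homologous recombination 12 of 25 fell, including Fancb (-0.56) and Fancm (-0.51) of the core complex and the single-strand binding subunit Rpa2 (-0.47).

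In break signalling 7 of 16 fell (43.8%, beside 21.7% of all genes). Among them were Fam175a (-0.54) and Brcc3 (-0.52), of the complex that Brca1 joins at breaks, and the checkpoint loader Rad17 (-0.46). The other probes of Fam175a did not pass and differed in sign, at 0.23 (adjusted p = 0.083) and -0.52 (adjusted p = 0.18). Of 8 other end joining genes (median -0.17), 2 fell (25%, beside 21.7% of all genes), Aplf (-0.52), a scaffold, and Polq (-0.45), the polymerase of alternative joining. Of 9 further mismatch repair genes and bypass polymerases (median -0.042), 2 fell (22.2%), Pms1 (-0.35) and Rfc1 (-0.31), a clamp loader subunit. Beside Exosc3, 8 of 13 exosome and elongation genes fell, among them Exosc7 (-0.55) and the nuclease Dis3 (-0.46).

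Genes of DNA replication and cell division, and markers of the cell types in a spleen, moved on the same arrays. Among all genes tested 21.7% fell and 19.5% rose. Of 16 S phase genes tested 13 fell (median -0.37, with Cdc45 at -0.52, Rrm1 at -0.48 and Mcm5 at -0.45), and of 16 genes of G2 and mitosis 13 fell (median -0.40, with Bub1b at -0.85, Plk1 at -0.73 and Nusap1 at -0.55). None of the 13 S phase calls held without imatinib replicate 1 or 2, and 2 of the mitosis calls did; 9 and 10 held without control replicate 1, and 7 and 8 without control replicate 2. Their summed signal, in units of the 75th percentile, was 200.3 to 203.4 with imatinib and 260.9 to 262.2 without for S phase, and 126.1 to 127.6 against 163.9 to 167 for mitosis. All 9 B cell markers were above background; 5 fell, led by Cd22 (-1.05) and Fcer2a (-0.92), and Cr2 rose by 0.54 (without either imatinib array 2 of the 5 falls and not the rise held), with summed signals of 336.1 to 341.7 and 356.9 to 383.3. The B cell markers Cd79b (-0.0062), Blnk (0.012) and Cd79a (-0.057) did not pass, and their arrays overlapped between the groups. Of 10 T cell markers 8 rose, led by Cd28 (2.84), Cd8a (2.44) and Cd3g (2.09). Cd4 (0.068) and Cd247 (0.29) did not pass on their brightest probes. Summed signals of the T cell markers were 35.41 to 35.85 with imatinib against 18.79 to 19.26 without. Of 11 macrophage markers 8 were tested (median 0.40) and 4 rose, led by Adgre1 (3.60), Apoe (2.51) and Cd14 (1.66), while Siglec1 (-0.40), Mpeg1 (-0.15) and C1qb (-0.019) were below 0 without passing, with summed signals of 9.67 to 10.18 against 4.17 to 4.30, while C1qa, C1qc and Fcgr1 were not well above background on both arrays of either group. The part of cell division and of cell make-up in the changes of the repair genes was not tested.

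Promoters of the members were searched for a motif of E2F, the factor family that switches on S phase genes, because so many members moved together. RefSeq windows of assembly GRCm38.p6, from 250 bases before to 50 after each gene start, were matched for 36 of the 45. The letters searched, on both strands, were TTTCCCGC, TTTCGCGC, TTTGCCGC and TTTGGCGC. They were found in 6 of the 36 (16.7%), against 2.60% of 27025 genes with such windows, which had a lower median GC content (52.75% against 59.2%). Of 19 matched members that fell, 4 held a match (Chek2, Brca2, Msh3 and Xrcc6), and of 17 that did not fall 2 did (Mdc1 and Msh6). The letters CCAAT were in 19 of the 36 (52.8%, against 41.1% of all genes), and TTTGAA was in 1 (2.78%, against 20.2%). The stretches of 30 bases below surround the matches that lie before the gene start, with the matched letters in capitals, read along the strand of the gene.
Brca2, chr5:150522442-150522471, plus strand: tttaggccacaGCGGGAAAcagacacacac
Chek2, chr5:110839820-110839849, plus strand: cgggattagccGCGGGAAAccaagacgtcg
Msh3, chr13:92355185-92355214, minus strand: gccgtcaagTTTGGCGCGAAAtcgcagccc
Xrcc6, chr15:82016312-82016341, plus strand: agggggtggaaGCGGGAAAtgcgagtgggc
Mdc1, chr17:35841468-35841497, plus strand: ttttcttcagcctgTTTCCCGCcggtagcc

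In the Msh3 stretch a pair of matches on opposite strands overlap, and the capitals span both. Xrcc6 has its match 46 bases before the start and Mdc1 16 bases before it, whereas in Brca2, Chek2 and Msh3 the match begins 168, 152 and 202 bases before. The match is a description of letters, and no binding was measured.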

How the data were processed

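RNA of 4 samples (2 with 10 µM imatinib, 2 controls) was measured on Agilent 1-colour arrays of 1 slide. The intensity of each spot was deposited by the authors as Feature Extraction 9.1.3.1 wrote it, per the file headers: background-subtracted, detrended and without scaling across arrays. The authors also deposited a table of log2 values, for which the series' design text names GeneSpringGX. Once the median offset of each array was removed, at least 99.88% of its values were within 0.01 of the log2 scanner signals.

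Log2 processed signals were averaged over the spots of a probe, leaving out control spots and outlier spots, and each array's 75th percentile (678 to 854) was subtracted. A probe was tested if both arrays of 1 or both groups had it well above background (25467, of which 92 were left out for a marked value); no spot was saturated. The test was limma 3.58.1, run in R 4.3.3 (group as the only term, two-sided, 2 residual degrees of freedom), with Benjamini-Hochberg adjustment over all tested probes and a threshold of 0.05; the procedure was tested on simulated data. An exact permutation test of 2 against 2 arrays could not pass this threshold. The number of arrays limits the precision.

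The brightest tested probe stood for a gene. A repeat was a perfect run of at least 12 bases of a 2-base or 3-base unit. The members, lists and tests were chosen with earlier results of these data known. Every member is accounted for; values per array are given for up to 5 members of a pathway with the largest changes past the threshold, for members that moved against their pathway, for complexes whose members differ in sign and for probes that disagree or hold a repeat, while the array values of other members were a later choice, made knowing them; up to 3 genes are named per other list. Deviations of same-numbered arrays correlated at -0.07, so the main fit used no pairing. With 2 arrays per group this value cannot show that the samples were unpaired. Alternatives were other background corrections, scalings, filters, variance models and sources, a replicate block, gene averages and each array left out.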

Additional observations from a re-analysis of the deposited data

How the results depend on the processing

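The members' direction held in each setting as a median, while the number of calls did not. The median difference of the members was -0.23 with normexp, -0.18 with quantile normalization, -0.44 with median centring, -0.54 with spike-in scaling, -0.264 in the deposited value table, -0.262 with repeat probes left out and -0.236 with the mean over the probes of a gene, and -0.253 to -0.245 with 1 array left out. Members lower numbered 6 without a filter on dim probes, 8 with the replicate block and 4 when a call also needed a difference of at least 0.5, and 4 to 12 with 1 array left out. Members higher numbered 4 with quantile normalization (18.3% of all probes) and with trend and robust fitting (22.5%). They numbered 1 with median centring, spike-in scaling, no filter, the replicate block, repeat probes left out and a difference of at least 0.5. In those settings 7.21% to 18.6% of all probes were higher. All probes called numbered 4971 without a filter, 5483 with a difference of at least 0.5 and 4040 to 8891 with 1 array left out. The split of all calls into higher and lower was 4905 and 5717, whereas median centring gave 3305 and 9251, and spike-in scaling 2787 and 11713.

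Signs turned only for members that did not pass. Under median centring the differences were -0.075 for Lig3, -0.12 for Atr, -0.0081 for H2afx, -0.057 for Mdc1, -0.0097 for Rnf168, -0.16 for Dclre1c and -0.13 for Fanca; under spike-in scaling they were -0.17, -0.21, -0.10, -0.15, -0.10, -0.25 and -0.22, and -0.079 for Chek1. Xrcc1 was 0.038 under quantile normalization. With 1 array left out, Xrcc1 ran from -0.12 to 0.0068 (without control replicate 1), Dclre1c from -0.014 (without imatinib replicate 1) to 0.068, Nbn from -0.19 to 0.070 (without control replicate 2; 0.0091 without imatinib replicate 2) and Fanca from -0.022 (without control replicate 2) to 0.14. Median centring and spike-in scaling move every probe of an array by 1 constant, so all differences shifted down by the same amount. The members whose signs turned there had small differences above 0 in the main fit. The cause of the other changes was not tested, except that leaving out the filter adds tests and leaving out an array removes a sample. An array left alone in its group was assumed to vary like the other group.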

Other observations

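Probes with other simple repeats also moved as sets on these arrays. Runs of A and G, of 12 or more bases, had a median difference of 1.93 over 23 tested probes (21 higher, none lower), and runs of AAG one of 1.34 over 63 (58 higher and 2 lower). Runs of T and C, the complement of A and G, had a median of -0.27 over 16 probes (7 lower, none higher). The 25004 tested probes with no such run had a median of -0.0022, with 4694 higher and 5655 lower.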
